A study of Mus musculus with 6 samples.

Results

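The genes that make and release glucose and those that store it as glycogen were followed in hepatocytes of mice with liver fibrosis, with and without hepatocyte FOXA2. The 10 genes G6pc, Pck1, Fbp1, Pcx, Gys2, Pygl, Ppargc1a, Slc37a4, Ppp1r3b and Ppp1r3c were taken by symbol from the 34745 genes counted, and all 10 were found and passed the filter on low counts. FOXA2 (forkhead box A2) is a transcription factor of hepatocytes that binds the regulatory DNA of many metabolic genes. All mice were males aged 12 weeks with both Foxa2 alleles floxed (FOXA2f/f), and all received CCl4, a hepatotoxin, in 2 injections a week of 0.25 ml/kg over 4 weeks, and were killed on day 3 after the last dose. At 2 weeks before CCl4 the FOXA2f/f+CCl4 group was given AAV8-TBG-Control and the FOXA2H-KO+CCl4 group AAV8-TBG-Cre through the tail vein. TBG is a promoter active in hepatocytes, used to direct Cre to these cells, and both groups carried a virus. RNA came from primary hepatocytes isolated by collagenase perfusion and low-speed centrifugation, and 3 libraries per group (replicates 1, 2 and 4) were sequenced. No group without CCl4 was analysed here, and neither the feeding state nor the hour of sampling is given in the sources used here. The labels number separate samples without saying whether each is a single mouse. The p-values set the difference between the groups against the spread between these samples.

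In the fasted liver, gluconeogenesis builds glucose from lactate, amino acids and glycerol. Pyruvate carboxylase (Pcx) and phosphoenolpyruvate carboxykinase (Pck1) together convert pyruvate to phosphoenolpyruvate, fructose-1,6-bisphosphatase (Fbp1) acts later in the pathway, and the transporter Slc37a4 carries glucose 6-phosphate into the endoplasmic reticulum, where glucose-6-phosphatase (G6pc) frees the glucose. Glycogen is built by the liver glycogen synthase Gys2 and broken down by the liver phosphorylase Pygl, and the subunits Ppp1r3b and Ppp1r3c bring protein phosphatase 1 to glycogen. Glucagon, acting through cyclic AMP, and glucocorticoids raise transcription of Pck1 and G6pc, insulin represses it, and the coactivator PGC-1α (Ppargc1a) takes part in the fasting response.

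Total counts lay between 20983455 and 28327765 per library. Levels within a gene are given as CPM, counts per 1000000 counts of the TMM-scaled library size, and levels between genes as the deposited FPKM, which also divides by gene length. Foxa2 had 442, 246 and 516 counts in FOXA2f/f replicates 1, 2 and 4 and 28, 19 and 35 in FOXA2H-KO, a log2 fold change of -3.85 (SE 0.31). It was the only gene of 14417 tested (0.00694%) with an adjusted p under 0.05 and a fold change of at least 2 (edgeR quasi-likelihood test, Benjamini-Hochberg adjusted p = 0.0313). With a library left out its log2 fold change was between -4.17 and -3.63, and the adjusted p of this test was 0.0340 without FOXA2f/f replicate 2 and from 0.0624 to 0.499 without any of the others. Hepatocyte marker RNA was abundant in every library, at a summed 128716 to 179071 CPM over 14 genes in FOXA2f/f and 127711 to 166271 CPM in FOXA2H-KO. Of these 14 genes 4 were higher in FOXA2H-KO, and 3 had an unadjusted p under 0.05 (Serpina1e and Tdo2 higher, Asgr1 lower). Markers of other liver cells were also present, and their sums overlapped between the groups. Over 12 macrophage genes the sum was 673 to 3059 CPM in FOXA2f/f and 1502 to 2378 CPM in FOXA2H-KO. It was 1096 to 2820 CPM and 1652 to 2689 CPM over 12 genes of stellate cells and fibroblasts, and 277 to 974 CPM and 556 to 619.8 CPM over 12 endothelial genes. Over 10 lymphocyte genes it was 19.5 to 83.9 CPM and 43.8 to 74.4 CPM. Of the genes tested, 11 of 12 macrophage, 11 of 12 stellate cell and fibroblast, 5 of 12 endothelial and 5 of 6 lymphocyte genes were higher in FOXA2H-KO. Among them only Ccr2, a macrophage gene, had an unadjusted p under 0.05. The sum of 8 cholangiocyte genes was 176 to 370.5 CPM in FOXA2f/f and 254 to 715 CPM in FOXA2H-KO, with all 7 genes tested higher in FOXA2H-KO, 2 of them with an unadjusted p under 0.05. That of 8 neutrophil genes was 8.66 to 83.7 CPM and 19.1 to 30.0 CPM, with 5 of 7 genes tested lower, 4 of them with an unadjusted p under 0.05. None of these marker genes but 2 lymphocyte and 1 neutrophil gene was at 0 in any library, and their part in the results was not tested.

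None of the 10 genes passed the adjusted test in FOXA2H-KO, and the 2 with the largest differences were Fbp1 and G6pc, both lower. Fbp1 averaged 359 ± 80.4 CPM in FOXA2H-KO and 659.5 ± 212 CPM in FOXA2f/f (SD, n = 3 each), and G6pc 268 ± 94.1 and 618 ± 412 CPM. Their unadjusted p values were 0.0133 and 0.0355, and the adjusted values 0.791 and 0.918 (edgeR). An unadjusted p under 0.05 was thus seen in 2 of 10 genes, beside 745 of all 14417 genes tested (5.17%, of which 3.18% with a lower and 1.98% with a higher value in FOXA2H-KO). The other 8 genes had unadjusted p values of 0.103 to 0.895. Of the 10 genes 8 had a log2 fold change below 0, beside 52.2% of all genes, and their median was -0.17 beside -0.01 over all genes. The count below 0 was 5 of 10 with library size alone, on either FPKM scale and without FOXA2H-KO replicate 1, where the median was 0.01. This count was 6 of 10 with scaling to hepatocyte markers and without FOXA2f/f replicate 2, the highest library for 6 of the genes. With a block on replicate number it was 7, and without FOXA2H-KO replicate 4 it was 9. With library size alone and on the FPKM scales, the median of all genes was above 0 (0.10, 0.08 and 0.11). The median of the 10 genes minus that of all genes was -0.16, -0.14 and -0.16 there. This difference was -0.16 with all libraries and TMM scaling, and 0.03 without FOXA2H-KO replicate 1. The share of all genes below 0 was not computed for these alternatives. DESeq2 and the exact test of edgeR called none of the 10 either.

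**Figure D1:**
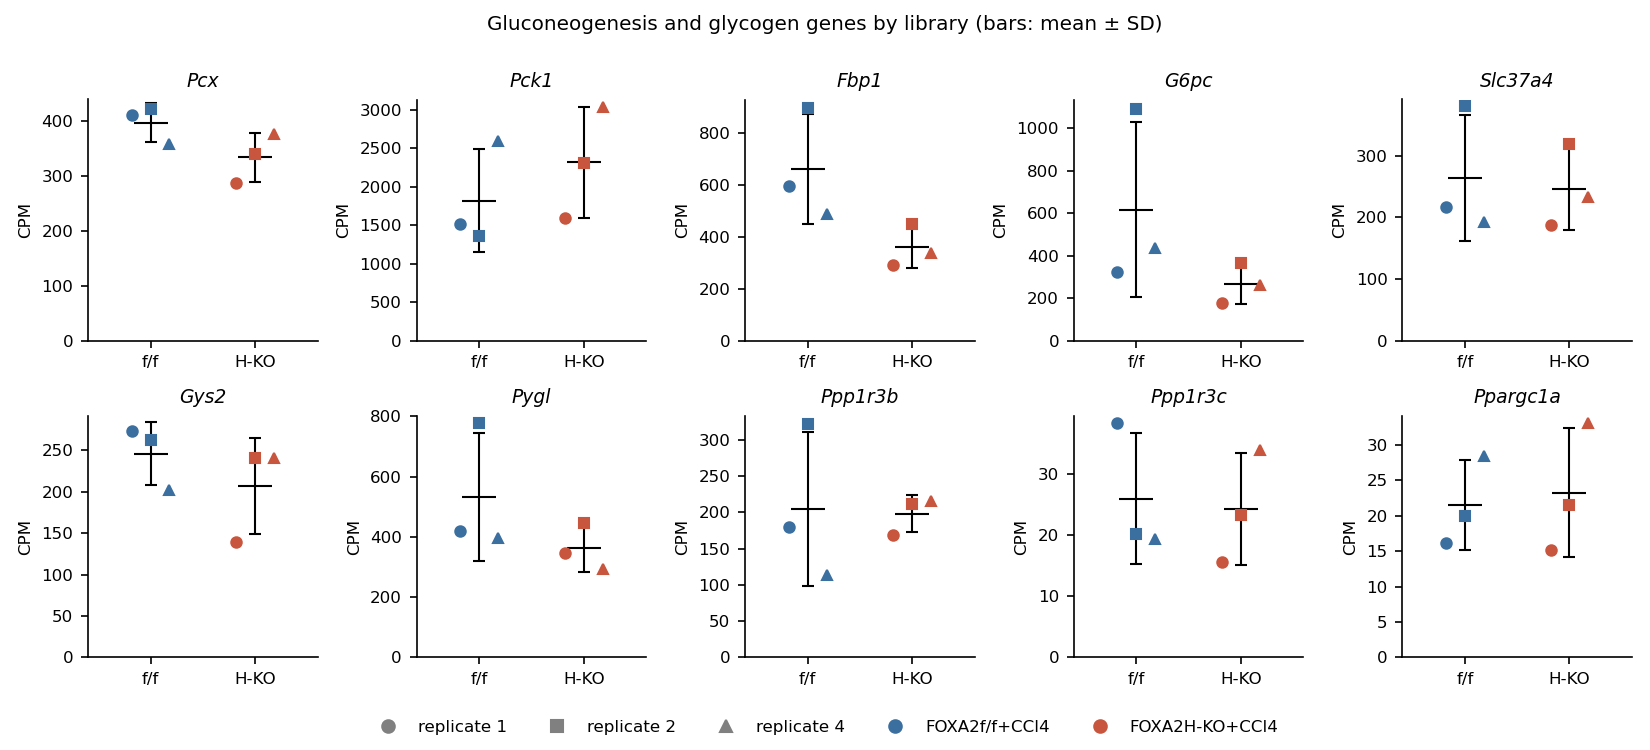
CPM (y axis, linear, from 0) of each of the 10 genes in the 3 FOXA2f/f+CCl4 (blue) and 3 FOXA2H-KO+CCl4 (red) libraries, with the shape giving the replicate number, the horizontal bar the mean and the error bar 1 SD. Fbp1 is the gene whose 2 groups do not overlap, and FOXA2f/f replicate 2 (blue square) is the highest library for 6 genes.

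Among the gluconeogenic enzymes, Pcx (ENSMUSG00000024892, chr19:4510472-4621752, plus strand, GRCm38) was measured at 412, 423 and 358 CPM in FOXA2f/f replicates 1, 2 and 4 and at 287, 341 and 376 CPM in FOXA2H-KO. The ranges overlapped, since FOXA2H-KO replicate 4 was above FOXA2f/f replicate 4. Its log2 fold change was -0.25 (SE 0.17, 95% interval -0.64 to 0.14, edgeR unadjusted p = 0.176, adjusted p = 0.983), the smallest standard error of the 10 genes.

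Pck1 (ENSMUSG00000027513, chr2:173153048-173159273, plus strand) was at 1514, 1356 and 2592 CPM in FOXA2f/f and at 1600.0, 2309 and 3038 CPM in FOXA2H-KO. The highest FOXA2f/f library, replicate 4, was above 2 of the 3 FOXA2H-KO libraries. Pck1 was 1 of the 2 genes with a higher mean in FOXA2H-KO, with a log2 fold change of 0.35 (SE 0.34, interval -0.45 to 1.14, edgeR unadjusted p = 0.340, adjusted p = 0.983). It ranged from 0.11 without FOXA2H-KO replicate 4 to 0.69 without FOXA2f/f replicate 4.

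Fbp1 (ENSMUSG00000069805, chr13:62864753-62888282, minus strand) was measured at 594, 896 and 488 CPM in FOXA2f/f and at 292, 448 and 338 CPM in FOXA2H-KO. Every FOXA2H-KO library lay below every FOXA2f/f library, which held for 1 of the 10 genes and for 10.5% of all genes tested (5.96% with FOXA2H-KO lower and 4.54% with it higher). This was a log2 fold change of -0.88 (SE 0.27, interval -1.51 to -0.24), a 1.84-fold lower level. It was between -1.07 and -0.59 when any single library was left out, and the unadjusted p was 0.0532 without FOXA2H-KO replicate 1 (edgeR). DESeq2 gave an adjusted p of 0.168, the smallest of all alternatives for any of the 10 genes, and the largest for Fbp1 was 1.00.

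The last enzyme, G6pc (ENSMUSG00000078650, chr11:101367561-101377903, plus strand), was measured at 326, 1089 and 438 CPM in FOXA2f/f and at 178, 366 and 262 CPM in FOXA2H-KO. The groups overlapped in a single pair, since FOXA2f/f replicate 1 was below FOXA2H-KO replicate 2. The FOXA2f/f libraries spanned 3.34-fold and the FOXA2H-KO libraries 2.06-fold. The log2 fold change of -1.20 had the largest standard error of the 10 genes (SE 0.47, interval -2.30 to -0.11). Without FOXA2f/f replicate 2 it was -0.51 (edgeR unadjusted p = 0.132), and the unadjusted p was 0.112 without FOXA2H-KO replicate 1 and 0.0864 without FOXA2H-KO replicate 4.

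For the transporter Slc37a4 (ENSMUSG00000032114, chr9:44396852-44402968, plus strand), FOXA2f/f libraries held 217, 379.9 and 193 CPM and FOXA2H-KO libraries 187, 319 and 233 CPM. Replicate 2 was the highest in both groups and the ranges overlapped widely. Its log2 fold change was -0.10 (SE 0.30, interval -0.80 to 0.61, edgeR adjusted p = 0.993) and above 0 in 6 of 16 alternatives, among them the FPKM scale, where the means were 119 in FOXA2f/f and 123 in FOXA2H-KO.

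The promoters of the hormone-regulated members are shown for the letters that forkhead factors and the cyclic AMP response factor recognize. Windows of 250 bases before to 50 bases after the RefSeq start site (GRCm38.p6) were given for 8 of the 10 genes (11 windows) and were searched on both strands for forkhead letters (TGTTTAC or the variant TGTTTGC, and likewise TATTTAC as well as TATTTGC), insulin response letters (TGTTTTG or the variant TATTTTG) and cyclic AMP response letters (ACGTCA). Capitals mark the matches, which do not overlap each other. The windows are G6pc at chr11:101367466-101367765 (plus strand), Pck1 at chr2:173152823-173153122 (plus strand) and Ppargc1a at chr5:51567676-51567975 (minus strand), each written 5′ to 3′.
G6pc: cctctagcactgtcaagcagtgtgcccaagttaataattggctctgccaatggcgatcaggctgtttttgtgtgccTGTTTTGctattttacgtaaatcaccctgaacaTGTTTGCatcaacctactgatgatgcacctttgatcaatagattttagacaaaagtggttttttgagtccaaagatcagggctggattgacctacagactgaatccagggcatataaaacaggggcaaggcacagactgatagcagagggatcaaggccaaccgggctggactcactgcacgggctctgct
Pck1: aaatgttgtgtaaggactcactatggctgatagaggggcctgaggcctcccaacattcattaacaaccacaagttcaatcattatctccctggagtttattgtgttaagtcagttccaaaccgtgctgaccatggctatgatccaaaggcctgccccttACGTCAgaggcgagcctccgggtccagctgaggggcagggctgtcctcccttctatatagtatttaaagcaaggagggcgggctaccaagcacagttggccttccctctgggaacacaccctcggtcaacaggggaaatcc
Ppargc1a: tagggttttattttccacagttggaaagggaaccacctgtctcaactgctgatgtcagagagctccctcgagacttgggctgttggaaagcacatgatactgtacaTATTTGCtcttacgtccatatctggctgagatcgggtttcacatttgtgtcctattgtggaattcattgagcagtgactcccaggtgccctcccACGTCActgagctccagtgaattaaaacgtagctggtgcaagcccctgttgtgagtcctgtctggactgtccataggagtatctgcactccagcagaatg
The G6pc window held the forkhead letters TGTTTGC with their first base 141 bases before the start site and the insulin response letters TGTTTTG 174 bases before it. The Pck1 window held ACGTCA 91 bases before the start site. The Ppargc1a window held TATTTGC 144 bases and ACGTCA 50 bases before the start site. Slc37a4 had ACGTCA on the minus strand at a single site that 2 overlapping windows share. Over all 32851 RefSeq promoter windows, forkhead letters were found in 13.5%, insulin response letters in 10.2% and cyclic AMP response letters in 7.51%. The 3 genes shown had log2 fold changes of -1.20, 0.35 and 0.11. Binding of FOXA2 was not measured in these libraries.

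Of the glycogen genes, Gys2 (ENSMUSG00000030244, chr6:142422613-142473109, minus strand) was at 273, 263 and 202 CPM in FOXA2f/f replicates 1, 2 and 4 and at 139.5, 240.5 and 240.3 CPM in FOXA2H-KO. A single library, FOXA2H-KO replicate 1, was far below the rest. The log2 fold change was -0.25 (SE 0.24, interval -0.81 to 0.31, edgeR adjusted p = 0.983), and -0.03 without that library.

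Its counterpart in breakdown, Pygl (ENSMUSG00000021069, chr12:70190811-70231488, minus strand), held 421, 777 and 397 CPM in FOXA2f/f and 346, 447 and 293 CPM in FOXA2H-KO. FOXA2f/f replicate 2 was the highest library and FOXA2H-KO replicate 2 lay above the other two FOXA2f/f libraries. The log2 fold change was -0.55 (SE 0.30, interval -1.25 to 0.14, edgeR unadjusted p = 0.103, adjusted p = 0.952) and -0.18 without FOXA2f/f replicate 2.

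Ppp1r3b (ENSMUSG00000046794, chr8:35375739-35388139, plus strand), the main liver subunit that directs the phosphatase to glycogen, was at 180.1, 321 and 113 CPM in FOXA2f/f and at 169, 211 and 215 CPM in FOXA2H-KO. All FOXA2H-KO libraries fell inside the 2.84-fold range of FOXA2f/f. In the fit, the log2 fold change was -0.05 (SE 0.35, interval -0.85 to 0.76, edgeR adjusted p = 0.997) and was above 0 in 7 of 16 alternatives.

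The more widely expressed subunit Ppp1r3c (ENSMUSG00000067279, chr19:36731731-36736653, minus strand) was at 38.3, 20.2 and 19.3 CPM in FOXA2f/f and at 15.6, 23.2 and 33.9 CPM in FOXA2H-KO. The ranges overlapped almost entirely. Its log2 fold change was -0.10 (SE 0.35, interval -0.91 to 0.71, edgeR adjusted p = 0.993) and above 0 in 5 of 16 alternatives.

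Ppargc1a (ENSMUSG00000029167, chr5:51454250-51567726, minus strand), the lowest of the 10 genes per length, was at 16.1, 19.96 and 28.4 CPM in FOXA2f/f and at 15.2, 21.5 and 33.1 CPM in FOXA2H-KO. In each group replicate 1 was the lowest and replicate 4 the highest. Its log2 fold change was 0.11 (SE 0.31, interval -0.62 to 0.84, edgeR adjusted p = 0.993) and below 0 in 2 of 16 alternatives. With 3 libraries a group, the intervals of Slc37a4, Ppp1r3b, Ppp1r3c and Ppargc1a reached at least 0.61 log2 units on both sides of 0, so that a difference of that size in either direction was within them.

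**Figure D2:**
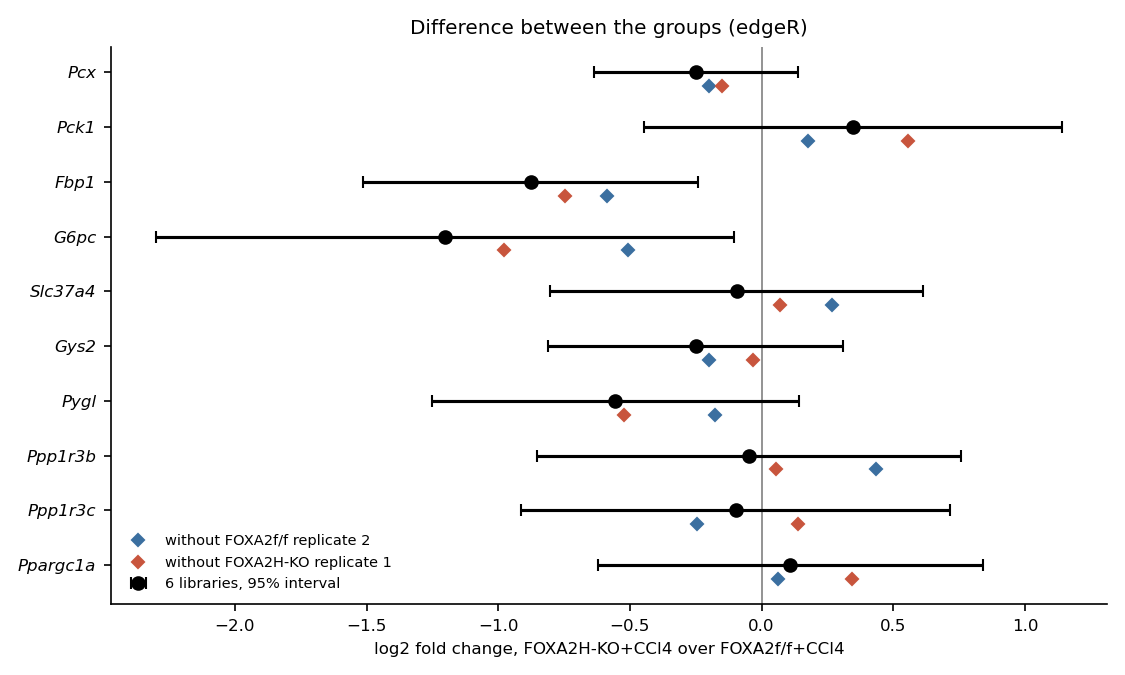
log2 fold change of FOXA2H-KO+CCl4 over FOXA2f/f+CCl4 (x axis) for the 10 genes, as black points with the 95% interval from all 6 libraries, and as diamonds without FOXA2f/f replicate 2 (blue) or FOXA2H-KO replicate 1 (red). The intervals of Fbp1 and G6pc lie below 0 and those of the other 8 genes include 0, and the G6pc diamond without FOXA2f/f replicate 2 is at -0.51.

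Per length, Pck1 had the highest mean over the 6 libraries at 374 FPKM, followed by Fbp1 at 199, G6pc at 177, Slc37a4 at 121, Pygl at 91.0, Pcx at 85.1, Gys2 at 75.2, Ppp1r3b at 47.0, Ppp1r3c at 9.11 and Ppargc1a at 2.68 FPKM. The order was the same within all 6 libraries for Slc37a4 over Pygl, Gys2 over Ppp1r3b, Ppp1r3b over Ppp1r3c and Ppp1r3c over Ppargc1a. G6pc exceeded Slc37a4 in the 3 FOXA2f/f libraries and lay below it in the 3 FOXA2H-KO libraries. Pygl exceeded Pcx in 3 of 6 libraries, so that these neighbours did not differ beyond their spread. Pck1 was above Fbp1, Fbp1 above G6pc and Pcx above Gys2 in 5 of 6 libraries each.

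A pair of libraries lay at the extremes for most of these genes. FOXA2f/f replicate 2 was the highest library for 6 of the 10 genes (Pcx, Fbp1, G6pc, Slc37a4, Pygl and Ppp1r3b), beside 39.0% of all tested genes at a mean of at least 10 CPM. FOXA2H-KO replicate 1 was the lowest for 7 of the 10 (Pcx, Fbp1, G6pc, Slc37a4, Gys2, Ppp1r3c and Ppargc1a), beside 18.4%. The median deviation of the 10 genes from their own means was 0.44 log2 units in FOXA2f/f replicate 2 and -0.45 in FOXA2H-KO replicate 1. It was between -0.06 and 0.09 in the other libraries. FOXA2f/f replicate 2 also had the lowest TMM factor (0.870) and FOXA2H-KO replicate 1 the highest (1.124). Dividing by this factor raised every CPM in the former and lowered every CPM in the latter. By FPKM, which lacks TMM scaling, Pcx was highest in FOXA2f/f replicate 4 (93.1). Slc37a4 and Ppargc1a were then lowest in FOXA2f/f replicate 1 (94.5 and 1.74 FPKM), and the other genes named kept their extremes. On the same TMM scale, the summed hepatocyte markers were highest in FOXA2f/f replicate 2 (179071 CPM) and lowest in FOXA2H-KO replicate 1 (127711 CPM). FOXA2f/f replicate 4 was close to the latter (128716 CPM). Alb made up most of this sum. By FPKM, without TMM scaling, Alb was highest in FOXA2H-KO replicate 4 (42989.9, beside 42245.5 in FOXA2f/f replicate 2). Its lowest FPKM was still in FOXA2H-KO replicate 1 (36584.4). In a CPM sum without Alb, added after the data were seen, FOXA2H-KO replicate 4 was the highest (55219.8 CPM, beside 54493 CPM in FOXA2f/f replicate 2). FOXA2f/f replicate 4 was then the lowest (39322 CPM, beside 44222 CPM in FOXA2H-KO replicate 1). FOXA2f/f replicate 2, the library with the fewest counts, held the lowest sum of all 6 lists of other cell types, with 1096 CPM of stellate cell and fibroblast markers, while FOXA2f/f replicate 4, where the members lay near their means, held the highest sums of stellate cell and fibroblast (2820.4 CPM), macrophage (3059 CPM) and endothelial markers (974 CPM). In RNA from bulk cells, fewer hepatocytes and less RNA per hepatocyte cannot be told apart. With counts scaled to the summed hepatocyte markers, Alb included, Fbp1 had a log2 fold change of -0.77 and G6pc of -1.09, and the median of the 10 genes was -0.11 beside 0.06 over all genes.

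**Figure D3:**
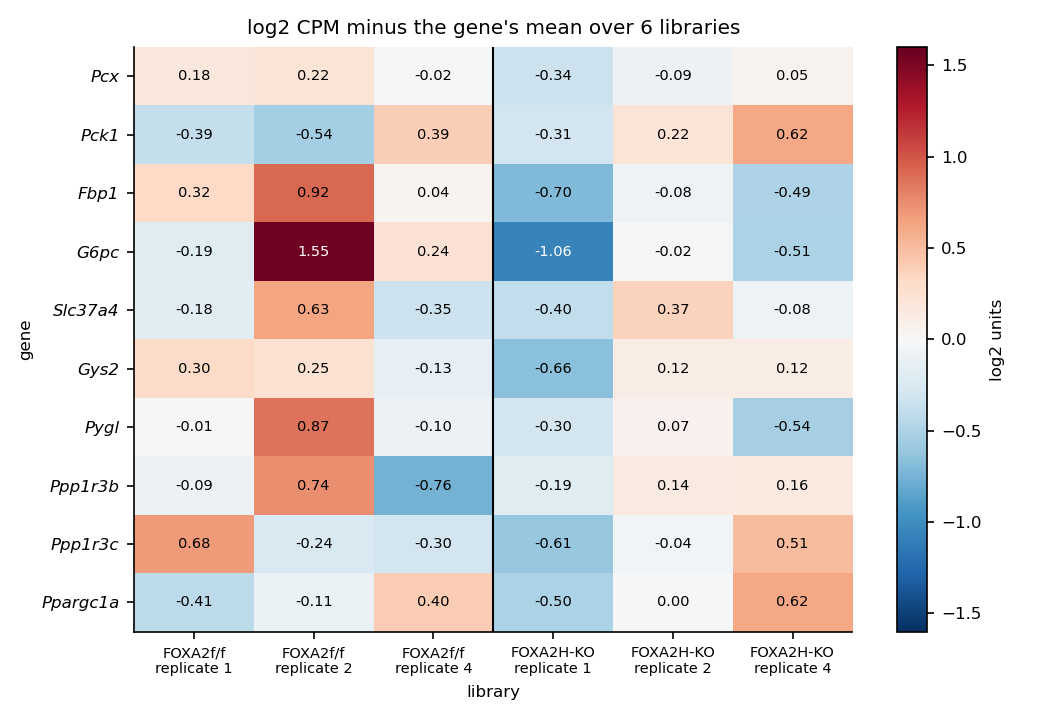
log2 CPM (prior count 2) of each gene (rows) in each library (columns) minus the gene's mean over the 6 libraries, with red above and blue below the mean and the value in each cell. FOXA2f/f replicate 2 reaches 1.55 for G6pc, FOXA2H-KO replicate 1 is below 0 for all 10 genes, and Pck1 and Ppargc1a are highest in FOXA2H-KO replicate 4.

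The 10 genes did not vary as a single block. Likeness was measured as the root mean square difference between a pair of genes in log2 CPM over the 6 libraries, each centred on its own mean. The closest pairs were Pcx and Gys2 (0.174 log2 units), Pck1 and Ppargc1a (0.217), Fbp1 and Pygl (0.233) and Slc37a4 and Ppp1r3b (0.241). Pck1 and G6pc, which hormones are known to regulate together, were the farthest pair (1.03). Pck1 was lowest in FOXA2f/f replicate 2, the library where G6pc was highest.

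Ratios of a pair of genes within a library do not depend on scaling between libraries, and 4 of 5 planned ratios were computed from FPKM. G6pc over Pck1 was 0.500, 1.87 and 0.393 in FOXA2f/f replicates 1, 2 and 4 and 0.258, 0.368 and 0.2001 in FOXA2H-KO. The groups did not overlap, and the ratio was 2.68-fold lower in FOXA2H-KO (log2 difference -1.42, exact two-sided permutation p = 0.1, adjusted over the 4 ratios p = 0.2). It ranged from -1.86 without FOXA2f/f replicate 4 to -0.73 without FOXA2f/f replicate 2. G6pc over Slc37a4, the catalytic unit over the transporter that feeds it, was 1.30, 2.47 and 1.96 in FOXA2f/f and 0.821, 0.990 and 0.967 in FOXA2H-KO. No FOXA2H-KO library reached the FOXA2f/f range (log2 difference -0.9996, exact permutation p = 0.1, adjusted p = 0.2, between -1.25 and -0.79 with any library left out). Both ratios have G6pc as numerator and are not separate results. How often a ratio of any pair of genes sets the groups apart was not computed, and 10.5% of single genes tested did so. With 3 libraries against 3 the smallest p the permutation test can give is 0.1, so neither ratio could pass 0.05.

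The remaining ratios overlapped. Gys2 over Pygl, synthase over phosphorylase, was 1.05, 0.549 and 0.828 in FOXA2f/f and 0.655, 0.874 and 1.33 in FOXA2H-KO (log2 difference 0.22, exact permutation p = 0.6). Ppp1r3b over Ppp1r3c was 3.04, 10.3 and 3.79 in FOXA2f/f and 6.99, 5.89 and 4.10 in FOXA2H-KO (log2 difference 0.17, exact permutation p = 0.8). Both differences were below 0 for some library left out.

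**Figure D4:**
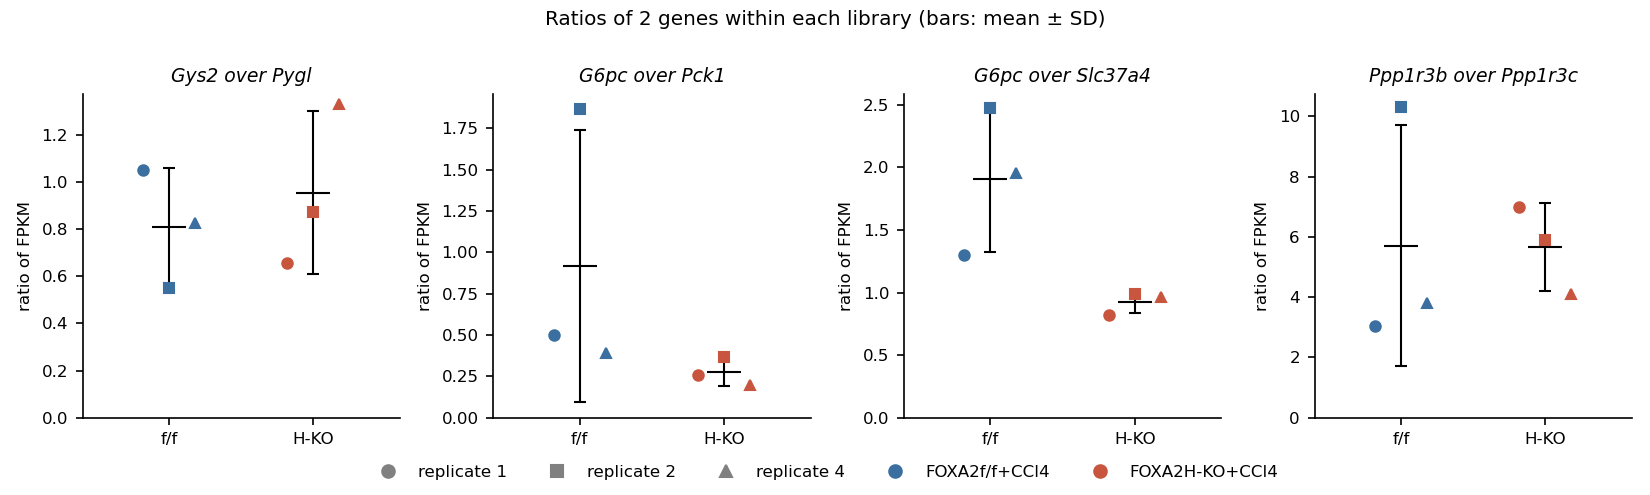
Ratio of the FPKM of a pair of genes in each library (y axis, linear, from 0), with the mean as a horizontal bar and 1 SD as the error bar, in FOXA2f/f+CCl4 (blue) and FOXA2H-KO+CCl4 (red). G6pc over Slc37a4 is 1.30 to 2.47 in FOXA2f/f and 0.821 to 0.990 in FOXA2H-KO, while Gys2 over Pygl and Ppp1r3b over Ppp1r3c overlap.

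The wider pathway was read in 11 lists with 172 further genes tested, of which 12 had an unadjusted p under 0.05 (6.98%, 7 lower and 5 higher) and none passed the adjusted test (edgeR, smallest adjusted p = 0.539). Of 9 genes of the reversible steps shared with glycolysis, 8 had lower values in FOXA2H-KO and none had an unadjusted p under 0.05 (median log2 fold change -0.31). Gapdh, the glyceraldehyde 3-phosphate dehydrogenase, had its highest value in FOXA2f/f replicate 2, as G6pc had (1863 CPM, and 905 to 1231 CPM in the other 5 libraries).

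Genes that supply substrates gave 17 lower and 6 higher values of 23, none with an unadjusted p under 0.05 (median -0.14). Tyrosine aminotransferase (Tat), a glucocorticoid target, was at 1247, 1670.1 and 2367 CPM in FOXA2f/f and 1146, 1585 and 2481 CPM in FOXA2H-KO. Within each group its order over the libraries was that of Ppargc1a. Glutamate dehydrogenase (Glud1) was at 922 to 1268 CPM in FOXA2f/f and 909 to 976 CPM in FOXA2H-KO.

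Of 23 other glycogen genes 17 had lower and 6 higher values (median -0.10), and 3, all lower in FOXA2H-KO, had an unadjusted p under 0.05. Ppp1r3g, a further glycogen-targeting phosphatase subunit, was at 7.77, 14.8 and 30.4 CPM in FOXA2f/f and at 5.66, 5.61 and 4.49 CPM in FOXA2H-KO. The groups did not overlap, and the FOXA2f/f libraries differed 3.92-fold among themselves. Its log2 fold change was -1.75 (SE 0.45, edgeR quasi-likelihood adjusted p = 0.650), with an adjusted p of 0.0189 in DESeq2 and 0.0453 in the exact test of edgeR among alternatives that reached 1.00. Without FOXA2f/f replicate 4 the log2 fold change was -1.10. The phosphorylase isoform of brain, Pygb, was at 26.9, 32.9 and 32.5 CPM in FOXA2f/f and 23.5, 16.8 and 17.2 CPM in FOXA2H-KO. Its groups did not overlap in CPM but did in FPKM (4.36 in FOXA2f/f replicate 1, 4.72 in FOXA2H-KO replicate 1). The log2 fold change of Pygb was -0.68 (SE 0.17, edgeR adjusted p = 0.650). Stbd1, which tethers glycogen to membranes, was at 88.8, 74.9 and 64.8 CPM and at 60.6, 50.8 and 50.3 CPM (log2 fold change -0.50, SE 0.16, edgeR adjusted p = 0.791).

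Among genes of glucose uptake, phosphorylation and glycolytic control, 1 of 12 had an unadjusted p under 0.05 (5 higher, 7 lower, median -0.11). This was Mlxipl, which encodes the glucose-sensing factor ChREBP, at 125, 239 and 189 CPM in FOXA2f/f and 122, 116 and 69.2 CPM in FOXA2H-KO (log2 fold change -0.85, SE 0.29, edgeR adjusted p = 0.836). The groups lay apart by a small margin in CPM and overlapped in FPKM (12.7 in FOXA2f/f replicate 1, 15.4 in FOXA2H-KO replicate 1). Ketohexokinase (Khk) was at 280.3 to 666 CPM in FOXA2f/f and 168 to 364 CPM in FOXA2H-KO, and the glucose transporter Slc2a2 at 389.9 to 771 CPM and 401 to 628 CPM.

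Of 22 transcription factors and cofactors of gluconeogenesis, 10 had higher and 12 lower values, none with an unadjusted p under 0.05 (median -0.02). Hnf4a, a regulator of hepatocyte genes and a partner of PGC-1α, was at 513 to 615 CPM in FOXA2f/f and 507 to 588 CPM in FOXA2H-KO, and Creb3l3, a factor of the fasting response, at 217 to 298 CPM and 214 to 277 CPM. Among 18 hormone receptors and signalling genes, 7 were higher and 11 lower (median -0.12). The glucagon receptor Gcgr alone of them had an unadjusted p under 0.05, at 155, 168 and 135 CPM in FOXA2f/f and 109.9, 115 and 98.1 CPM in FOXA2H-KO. The groups did not overlap (log2 fold change -0.50, SE 0.14, edgeR adjusted p = 0.716). Prkar1a, the regulatory subunit of the cyclic AMP-dependent kinase, was at 152 to 161 CPM in FOXA2f/f and 148 to 176 CPM in FOXA2H-KO, and Lpin1, a phosphatidate phosphatase, at 167 to 587 CPM and 243 to 538 CPM.

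**Figure D5:**
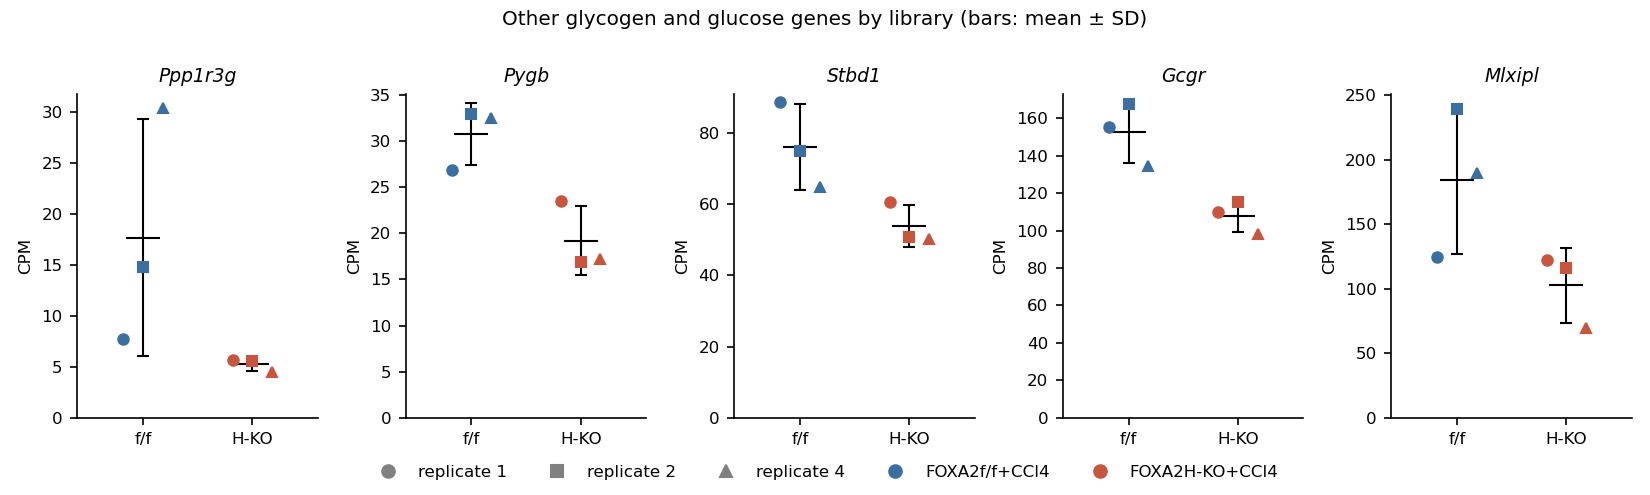
CPM (y axis, linear, from 0) of 5 further genes of glycogen and glucose metabolism in the 3 FOXA2f/f+CCl4 (blue) and 3 FOXA2H-KO+CCl4 (red) libraries, with the mean as a horizontal bar and 1 SD as the error bar. In these genes, chosen for an unadjusted p under 0.05, no FOXA2H-KO library reaches the FOXA2f/f range of CPM. The groups lay apart in CPM for 10.5% of all genes tested. In FPKM, which lacks TMM scaling, the groups overlap for Pygb, Stbd1 and Mlxipl. Ppp1r3g spans 7.77 to 30.4 CPM in FOXA2f/f.

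Fasting targets outside the pathway had a median of 0.35, with 10 of 13 higher in FOXA2H-KO, 4 of them with an unadjusted p under 0.05. Asparagine synthetase (Asns), a target of the amino acid response, was the list's gene with a lower value at an unadjusted p under 0.05, at 16.6, 10.03 and 4.58 CPM in FOXA2f/f and 2.72, 2.25 and 2.17 CPM in FOXA2H-KO (log2 fold change -2.12, SE 0.44, edgeR quasi-likelihood adjusted p = 0.579). It passed in the fits with DESeq2 and with the exact test of edgeR. Acot1, an acyl-CoA thioesterase, was at 4.30, 5.65 and 5.78 CPM and at 10.8, 5.77 and 22.2 CPM (log2 fold change 1.30, and 0.67 without FOXA2H-KO replicate 4). Cyp4a10, a fatty acid hydroxylase induced by PPARα, was at 14.0, 10.6 and 33.7 CPM and at 24.5, 36.1 and 365 CPM. In Cyp4a10 the difference rested on FOXA2H-KO replicate 4, without which the log2 fold change was 0.64 instead of 2.86.

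Fbp1 and Pck1 are also periportal genes, expressed mainly by hepatocytes near the portal vein. Of 15 periportal genes 10 were lower and 5 higher, and Fbp1 was the one with an unadjusted p under 0.05 (median -0.12). Albumin (Alb) was at 89394 to 124578 CPM in FOXA2f/f and 83489.8 to 111051 CPM in FOXA2H-KO. Of 13 pericentral genes 10 were higher and 3 lower (median 0.14), and ornithine aminotransferase (Oat) had an unadjusted p of 0.000277 (edgeR). Oat was at 26.1, 14.2 and 35.4 CPM in FOXA2f/f and 89.9, 103 and 89.6 CPM in FOXA2H-KO, with no overlap (log2 fold change 1.89, SE 0.30, edgeR adjusted p = 0.539), and it passed in those same alternatives. Cyp2e1, the pericentral enzyme that activates CCl4, was at 1267, 291 and 1023 CPM in FOXA2f/f and 1685, 1415 and 1159 CPM in FOXA2H-KO, and lowest in FOXA2f/f replicate 2. Cyp1a2, a further pericentral cytochrome P450, was at 425 to 653 CPM and 195 to 555 CPM.

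The clock and the immediate early genes were read because several members follow the hour and because isolation of hepatocytes induces stress genes. Of 15 clock genes 8 were higher and 7 lower (median 0.03), and Per3 alone had an unadjusted p under 0.05, at 61.6, 53.5 and 47.3 CPM in FOXA2f/f and 45.4, 39.7 and 30.3 CPM in FOXA2H-KO (edgeR adjusted p = 0.860). The clock-controlled factors Nr1d2 and Tef were at 124 to 134 and 152 to 226 CPM in FOXA2f/f and 122 to 137 and 165 to 193 CPM in FOXA2H-KO. Of 15 immediate early and stress genes 9 were higher and 6 lower, none with an unadjusted p under 0.05 (median 0.10). Junb was at 106, 23.8 and 96.9 CPM in FOXA2f/f and 56.1, 85.9 and 50.7 CPM in FOXA2H-KO, and lowest in FOXA2f/f replicate 2, where G6pc was highest. Zfp36 was at 95.4 to 225 CPM and 148 to 185 CPM. The part of these genes in the spread of the members was not tested.

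For 4 members the 3 genes of most similar pattern were sought among 2111 genes averaging 10 CPM or more whose SD over the 6 libraries was 0.3 log2 units or more. Since the choice was by pattern over these same libraries, a highest or lowest library shared with the member is no separate result. Nearest to G6pc were Serpina12 (0.137 log2 units), Tfrc, the transferrin receptor (0.177), and Inmt, an indolethylamine methyltransferase (0.211). Inmt was at 432, 1177 and 469.6 CPM in FOXA2f/f and 229, 454 and 226 CPM in FOXA2H-KO, and all 3 had their highest value in FOXA2f/f replicate 2, as G6pc had. Nearest to Ppargc1a were Tat (0.0724), Tbc1d8 (0.0994) and Pptc7 (0.103). These 3 were also lowest in replicate 1 and highest in replicate 4 of each group.

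Rgs3 (0.141), Zfp385b (0.167) and Dnmbp (0.167) were nearest to Pck1. Nearest to Gys2 were Ndufa2 (0.0717), Polr2l (0.0724) and Serpina1d (0.104), each at its lowest in FOXA2H-KO replicate 1, as Gys2 was. Serpina1d has near-identical paralogs and Pptc7, Ndufa2 and Tbc1d8 share 21.2%, 11.5% and 8.02% of their exonic length with a neighbouring gene, so that reads of these genes are uncertain. None of the 10 members shares exonic bases with another gene in GENCODE M21.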

How the data were processed

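Poly-A RNA of primary hepatocytes was sequenced in 3 FOXA2f/f+CCl4 and 3 FOXA2H-KO+CCl4 libraries. The authors deposited, for each library, raw fragment counts per Ensembl gene, without normalization, and FPKM values. FPKM divides the counts by gene length and total count, and each gene kept the same implied length across libraries, to a relative 4.37e-05 or better for 12052 genes. The submitters' processing notes name CASAVA 1.8, TopHat2 2.1.0, HTSeq, edgeR and mm10. The annotation and the strand setting are not given in the sources used here. A table of the whole series repeats these columns and the authors' own comparison, which was not used.

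Counts were fitted by the quasi-likelihood test of edgeR 4.0.16 (R 4.3.3) after TMM scaling and filterByExpr, without a replicate block, and p-values were adjusted over all 14417 genes tested. A gene was called at an adjusted p under 0.05 and a fold change of at least 2. CPM uses the TMM-scaled library size. A standard error is the log2 fold change divided by the root of the F statistic. Alternatives used DESeq2 1.42.0, limma 3.58.1 on log2(FPKM + 1) or log2(FPKM + 0.1) for genes at a mean of at least 1 FPKM, other scalings and filters, and each library left out. The FPKM scales carry no TMM scaling, and differences on them understate those of low genes. The fits were tested on simulated data.

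Positions and exon overlaps come from GENCODE M21 (GRCm38), which may differ from the authors' annotation. Promoters come from RefSeq. Between replicates, chi-square over its degrees of freedom was 104 to 123 in FOXA2f/f and 35.9 to 61.1 in FOXA2H-KO, a spread well beyond counting noise. The members and the lists, written by hand from general knowledge, were chosen with earlier results of these data known. The genes named are Foxa2, the 10 members, up to 3 genes per list with the smallest unadjusted p under 0.05, where fewer than 2 have one the 2 with the highest mean FPKM, and those nearest in pattern to 4 members. A further ratio and a gene given by this rule are not reported here.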

Additional observations from a re-analysis of the deposited data

How the results depend on the processing

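Over the 16 alternatives, Pcx, Pck1, Fbp1, G6pc, Gys2 and Pygl kept the direction of their log2 fold change, 20 of 160 values of the 10 genes reversed, and no member was called. The number of all genes called was 1 in the quasi-likelihood test, 73 with DESeq2, 64 with edgeR's exact test, 2 without a filter, and 0 with library size alone, scaling to hepatocyte markers, either FPKM scale or the replicate block. Leaving out a library gave 0 to 6. Members with an unadjusted p under 0.05 numbered 2, but 1 on either FPKM scale and 0 to 3 with a library left out (0 without FOXA2H-KO replicate 1, 1 without FOXA2f/f replicate 2 or FOXA2H-KO replicate 4, 3 without FOXA2f/f replicate 4). The 12 further list genes became 19 without a filter or on either FPKM scale, and 6 to 28 with a library left out. The counts over all genes moved as well. Without FOXA2f/f replicate 4, which gave the 28 list genes and 3 members, 2424 of all 14560 genes tested had an unadjusted p under 0.05. Without FOXA2H-KO replicate 4, which gave the 6, it was 411 of 14767 genes. All genes numbered 1093 of 22561 without a filter, and 648 and 642 of 10278 on the FPKM scales. The median of the 10 genes was between -0.35 and 0.01 with a library left out, highest without FOXA2H-KO replicate 1. Library size alone, which leaves out TMM scaling, put it at -0.06 and the median of all genes at 0.10. The former minus the latter was -0.16, as with TMM scaling. The cause of the other shifts was not tested.

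With library size alone, hepatocyte scaling, log2(FPKM + 1) and log2(FPKM + 0.1), Slc37a4 reversed to 0.047, 0.012, 0.058 and 0.059 and Ppp1r3b to 0.12, 0.0895, 0.19 and 0.20. Ppp1r3c reversed to 0.018, 0.025 and 0.029 with library size alone and the FPKM scales. With a library left out, log2 fold changes ranged from -0.33 to 0.27 for Slc37a4, -0.34 to 0.44 for Ppp1r3b, -0.41 to 0.31 for Ppp1r3c and -0.22 to 0.37 for Ppargc1a, and log2 ratio differences from -0.048 to 0.46 for Gys2 over Pygl and -0.18 to 0.70 for Ppp1r3b over Ppp1r3c.

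No pairing by replicate number was seen over all genes. The correlations of deviations within pairs were -0.07, 0.03 and -0.23, and 0 of 6 libraries correlated best with their own number. With 3 libraries a group, these correlations cannot decide whether equal numbers share a batch. With the replicate block 682 genes had an unadjusted p under 0.05 instead of 745, among them G6pc (-1.06), Fbp1 (-0.85) and Pygl (-0.51), and Ppp1r3b reversed to 0.070. The 3 libraries a group and the standard errors of these genes, 0.17 to 0.47 log2 units, limit the differences that could be seen.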
